A study of Homo sapiens with 26 samples.

Results

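The genes described here are 80 transcripts that were lower in ZR751 tumors resistant to atirmociclib than in both drug-sensitive and vehicle tumors, while sensitive and vehicle tumors differed little. They were chosen by the measured values, out of 30331 entries that name a gene. Group means of log2(TPM + 1) were taken over mice, and a gene had to have a mean of at least 5 TPM in vehicle tumors, a sensitive mean within 0.3 of the vehicle mean, and a value in every resistant mouse below that of every vehicle and every sensitive mouse. Of 10647 genes at that vehicle level, 7967 met the second condition and 902 also the third. The 80 with the largest drop were taken, the drop being the smaller of the differences to vehicle and to sensitive tumors. Every comparison among the 3 groups therefore entered the choice, and the members' differences are given as a description, with no test.

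ZR751 is an estrogen receptor positive human breast cancer line, here grown under the skin of female NSG mice, which lack mature T, B and NK cells. Resistant tumors came from 5 mice dosed for 84 to 91 days with the CDK4 inhibitor atirmociclib. Each oral dose was 60 mg/kg, and 2 were given daily with 7 hours between them. Sensitive tumors came from 3 mice given the same dose for 3 days, and vehicle tumors from 5 mice given vehicle for 3 days, labelled DMSO. For all groups, collection 3 hours after the last dose and a tumor volume of 150 cubic mm are listed. Each mouse gave libraries A and B, divided at a step not given in the sources used here. All groups derive from the same cell line, and no vehicle mice of the long study are among the samples, so treatment length, study and resistance cannot be told apart. Values are listed for resistant mice 9-3, 9-6, 9-7, 9-8 and 9-9, sensitive mice 6-4, 6-5 and 6-6, and vehicle mice 1-2, 1-4, 1-5, 1-6 and 1-9, in that order, as the mean TPM of both libraries. TPM scales a gene's length-corrected share of the RNA to a fixed total. Log2 differences are on the log2(TPM + 1) scale and are given with the SE from the model, relative to the median over all 14079 tested genes, which was -0.14 for resistant minus vehicle, -0.05 for resistant minus sensitive and -0.07 for sensitive minus vehicle. The rule used differences as measured, and each adjusted p tests the measured difference, which lies below the relative one by the size of that median.

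As background, estrogen receptor positive breast cancer cells hold a luminal identity through transcription factors of the GATA, FOXA, AP-2 and T-box families, and through nuclear receptor coactivators. Receptors for fibroblast growth factors, Notch ligands and TGF-beta pass signals from neighbouring cells and matrix to the nucleus. Phospholipase C, adenylyl cyclase and calcium channels carry signals from G protein coupled receptors, and coenzyme A, fatty alcohol and ceramide synthesis supply membrane and signaling lipids.

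Promoters are shown for the 3 members with the largest drop, for the neighbor of one of them on its chromosome, for FAR2 and STEAP1, which hold an E2F-type match, and for CEBPA, whose divergent neighbor CEBPA-AS1 is also a member. The sequences are those of RefSeq on GRCh38.p14, from 250 bases before to 50 after the annotated start, read 5′ to 3′ on the gene's strand. They cover chrX:152637645-152637944 (plus strand) for GABRQ, chr5:36066833-36067132 (minus) for UGT3A2, chr3:149377600-149377899 (minus) for TM4SF1, chr3:149703224-149703523 (minus) for WWTR1, chr12:29149028-29149327 (plus) for FAR2, chr7:90154219-90154518 (plus) for STEAP1 and chr19:33302485-33302784 (minus) for CEBPA. Capitals mark SP1 and NF-Y matches in GABRQ and TM4SF1, E2F and NF-Y matches in UGT3A2, FOXA and GATA matches in WWTR1, E2F and SP1 matches in FAR2, the E2F match in STEAP1 and SP1 matches in CEBPA. The letters searched for SP1, a factor of GC-rich promoters, were GGGCGG. For NF-Y, which binds CCAAT boxes, the name gives the letters. For the forkhead factor FOXA they were TGTTTAC. For GATA factors of the luminal lineage they were AGATAA. Motifs may overlap each other. The E2F letters searched were TTTCGCGC and TTTGGCGC. All motifs were searched on both strands.
GABRQ: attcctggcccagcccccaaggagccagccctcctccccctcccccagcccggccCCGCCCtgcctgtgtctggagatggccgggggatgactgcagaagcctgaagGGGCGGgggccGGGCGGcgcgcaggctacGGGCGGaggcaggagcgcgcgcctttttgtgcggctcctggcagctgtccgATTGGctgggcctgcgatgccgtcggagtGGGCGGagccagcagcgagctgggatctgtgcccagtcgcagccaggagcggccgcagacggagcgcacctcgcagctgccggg
UGT3A2: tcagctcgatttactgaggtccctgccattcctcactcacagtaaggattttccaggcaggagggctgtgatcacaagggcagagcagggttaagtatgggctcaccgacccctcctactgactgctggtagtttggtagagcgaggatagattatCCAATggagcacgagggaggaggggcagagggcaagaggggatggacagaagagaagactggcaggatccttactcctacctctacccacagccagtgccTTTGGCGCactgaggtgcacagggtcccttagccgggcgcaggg
TM4SF1: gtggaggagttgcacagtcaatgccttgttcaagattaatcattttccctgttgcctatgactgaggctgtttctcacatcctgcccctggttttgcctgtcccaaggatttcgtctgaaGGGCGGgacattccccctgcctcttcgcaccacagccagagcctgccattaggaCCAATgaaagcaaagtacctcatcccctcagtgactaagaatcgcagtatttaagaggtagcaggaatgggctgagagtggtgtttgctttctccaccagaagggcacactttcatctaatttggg
WWTR1: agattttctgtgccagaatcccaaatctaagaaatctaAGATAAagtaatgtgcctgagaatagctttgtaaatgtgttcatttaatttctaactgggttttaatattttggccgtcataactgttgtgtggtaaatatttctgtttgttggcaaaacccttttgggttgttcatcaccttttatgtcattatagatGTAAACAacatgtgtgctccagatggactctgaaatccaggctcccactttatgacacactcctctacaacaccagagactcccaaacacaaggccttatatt
FAR2: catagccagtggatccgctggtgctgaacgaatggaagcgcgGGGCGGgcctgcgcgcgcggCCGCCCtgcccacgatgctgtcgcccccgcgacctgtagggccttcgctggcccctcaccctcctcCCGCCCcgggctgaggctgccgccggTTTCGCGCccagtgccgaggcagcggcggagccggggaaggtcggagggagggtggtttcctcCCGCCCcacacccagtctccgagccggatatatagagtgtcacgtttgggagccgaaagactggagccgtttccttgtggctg
STEAP1: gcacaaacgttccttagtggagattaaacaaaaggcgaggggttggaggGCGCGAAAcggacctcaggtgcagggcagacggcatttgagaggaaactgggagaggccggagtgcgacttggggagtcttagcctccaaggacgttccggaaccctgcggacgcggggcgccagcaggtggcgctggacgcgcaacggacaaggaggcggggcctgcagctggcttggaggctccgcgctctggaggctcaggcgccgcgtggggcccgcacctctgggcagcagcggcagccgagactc
CEBPA: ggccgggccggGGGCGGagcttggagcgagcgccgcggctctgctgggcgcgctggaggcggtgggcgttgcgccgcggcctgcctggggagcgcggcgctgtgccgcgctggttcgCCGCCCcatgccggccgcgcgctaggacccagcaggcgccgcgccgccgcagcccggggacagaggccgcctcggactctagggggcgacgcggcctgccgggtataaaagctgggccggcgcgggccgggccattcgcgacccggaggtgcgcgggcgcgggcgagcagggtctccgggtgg

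Of the 80 members, 61 had an entry of this kind, and their promoters were compared with the 7822 matched genes of at least 5 TPM in vehicle tumors and with all 27305 promoters. An E2F match lay in 4 members (6.56%), UGT3A2, FAR2, STEAP1 and SLX4IP, beside 2.24% of the expressed genes and 1.18% of all. SP1 letters were in 34 members (55.7%), beside 72.2% and 44.6%. NF-Y letters were in 23 members (37.7%), beside 37.2% and 35.7%. The consensus estrogen response element, a palindrome with a spacer, was in none of the 61, beside 0.0128% and 0.0659%. AP-1 letters (TGANTCA) were in ADCY7, PANK1 and C2orf54, which is 4.92% of members beside 4.00% and 7.76%, and the letters TTTGAA of the cell cycle homology region were in 6 members (9.84%), beside 8.73% and 15.4%. WWTR1 alone held the FOXA letters (1.64%, beside 2.20% and 3.41%) and the GATA letters (1.64%, beside 4.17% and 10.5%), and 3 members (4.92%, beside 10.8% and 7.44%) held the E-box CACGTG. Under 50% GC were 10 member promoters (16.4%), beside 6.24% of the expressed genes, while the median GC was 65.7% in both. A match is a stretch of letters and not a measured binding site.

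Across the 80, resistant means lay between 0.254 and 92.9 TPM with a median of 7.88 TPM, against a median of 17.7 TPM in sensitive and 19.2 TPM in vehicle tumors. The relative difference was -2.29 to -0.56 against vehicle tumors, median -0.90, and -2.11 to -0.67 against sensitive tumors, median -0.91. Before that centring the drop corresponded to a median of 2.05 times lower than vehicle and 1.94 times lower than sensitive tumors, on the TPM + 1 scale. All 80 passed the filter on low values, a mean of at least 1 TPM in at least 3 mice. In the limma fit over 13 mice, all 80 were called lower than vehicle, where 32.5% of tested genes were, and 79 were called lower than sensitive, where 11.6% were (1631 genes, and 690 or 799 without mouse 6-4 or 6-5). These counts follow from the rule. Called higher were 11.5% of genes in resistant versus vehicle and 9.56% in resistant versus sensitive tumors. Median-of-ratios scaling turned the 4570 lower and 1624 higher calls of resistant versus vehicle into 2439 lower and 2540 higher, and the 1767 lower and 445 higher calls of sensitive versus vehicle tumors (12.6% and 3.16%) into 1066 and 771. Every resistant mouse was below all others in 1214 genes, 8.62% of those tested. For 69 of the members, all 10 resistant libraries also lay below all 16 other libraries. The rule favors this count, since it separates the mouse means of the same libraries. The share over all tested genes was not counted for libraries.

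**Figure D1:**
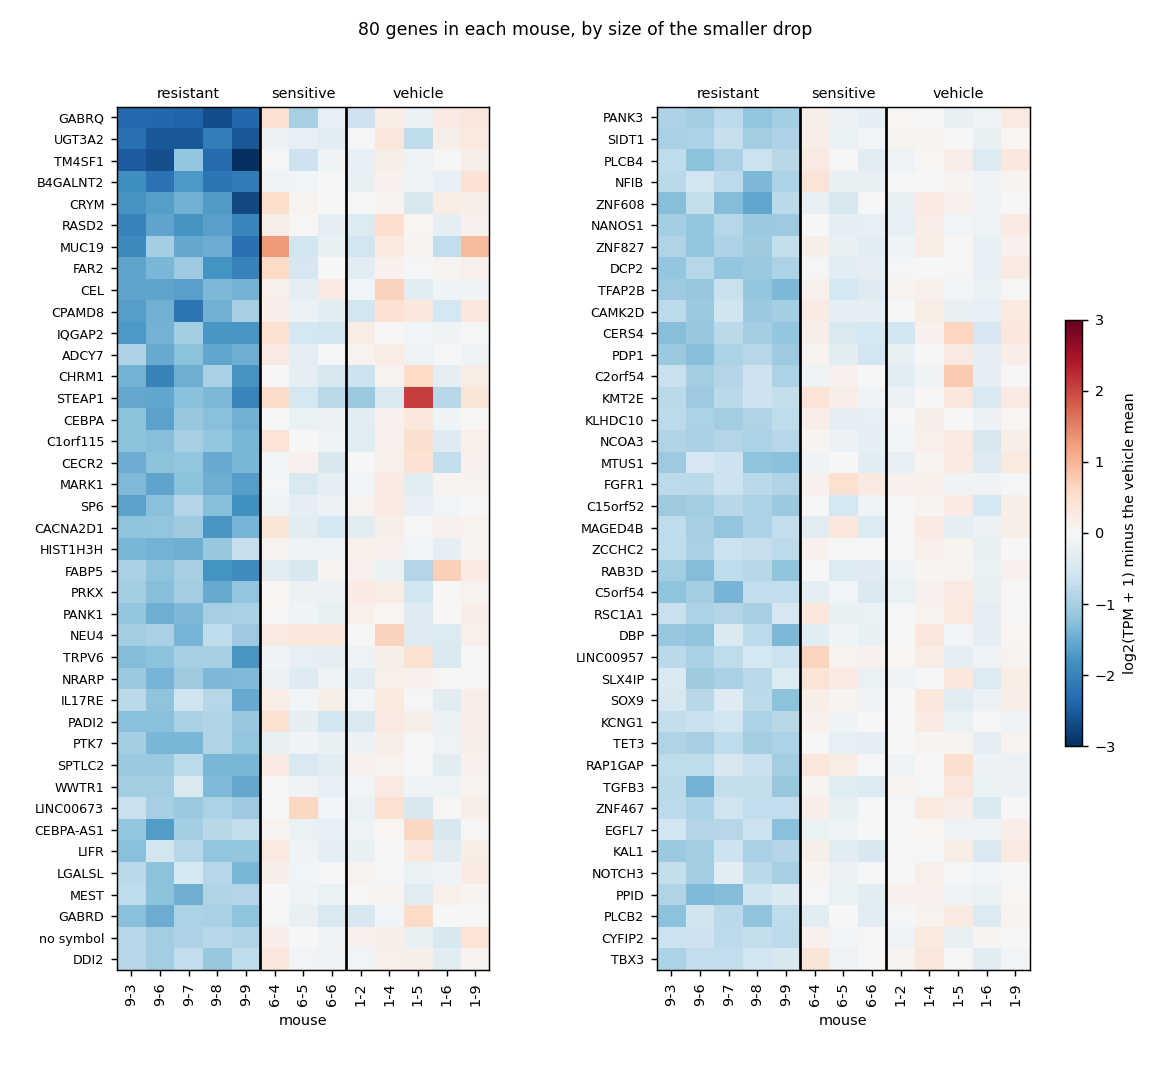
Each row, in 2 panels, is one of the 80 genes in order of the drop, each column a mouse (resistant, sensitive, vehicle from left to right), and color is log2(TPM + 1) minus the vehicle mean. The 5 resistant columns are below the vehicle mean in each row, and STEAP1 stands high in vehicle mouse 1-5.

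The last members by the rule were PLCB2, CYFIP2 and TBX3, with drops of 0.71, 0.71 and 0.69 as measured, and the first genes outside were ATP8A1, TET2 and RND3, with 0.69, 0.69 and 0.68. The edge of the set therefore cuts through a continuous range. The gap between the highest resistant mouse and the lowest of the others was 0.36 in the median member on the log2 scale, and was under 0.1 in SLX4IP (0.01), SOX9 (0.04), PPID (0.08), FABP5 (0.09) and DBP (0.0965). The range over resistant mice was widest in TM4SF1 (2.34), CRYM (1.26) and MUC19 (1.23). It was narrowest in NCOA3 (0.12), CYFIP2 (0.16) and an entry that carries an identifier in place of a gene symbol (0.19).

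**Figure D2:**
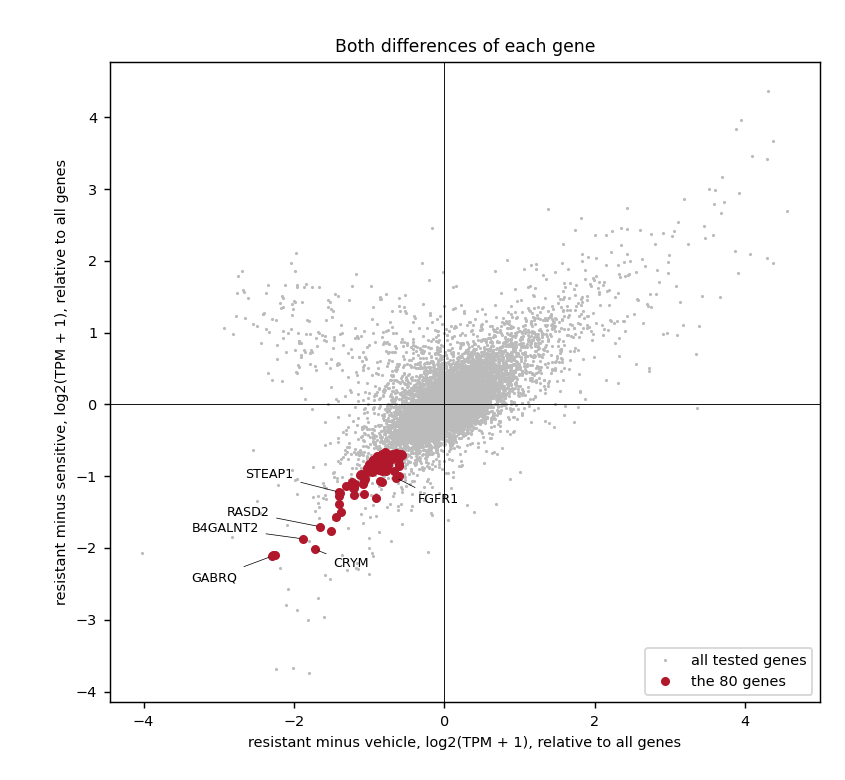
The x axis is resistant minus vehicle and the y axis resistant minus sensitive, both in log2(TPM + 1) relative to the median of all tested genes, with each gray point a tested gene and each red point one of the 80. The red points run from -0.56 to -2.29 on x and from -0.67 to -2.11 on y, a region that the rule sets.

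GABRQ, the theta subunit of the GABA-A receptor and the member with the largest drop (chromosome X, 152638183 to 152657534 on GRCh38), had 0.325, 0.31, 0.265, 0.05 and 0.32 TPM in resistant tumors, against 8.14, 2.35 and 4.69 TPM in sensitive and 3.37, 6.8, 4.91, 6.99 and 7.495 TPM in vehicle tumors. All resistant values were far below the others, and sensitive and vehicle values overlapped. GABRQ differed by -2.29 ± 0.24 against vehicle and -2.11 ± 0.28 against sensitive tumors, the lowest resistant mouse being 9-8. GABRD, the delta subunit of the same receptor type, had 2.64, 2.09, 3.5, 3.37 and 2.77 TPM in resistant tumors, against 7.39, 6.43 and 5.26 TPM in sensitive and 5.17, 7.13, 12.04, 7.56 and 7.53 TPM in vehicle tumors. Its vehicle mouse 1-5 was the highest of all, and the gene differed by -1.03 ± 0.17 against vehicle and -0.88 ± 0.20 against sensitive tumors. GABRA3, the alpha 3 subunit and not a member, averaged 3.17 ± 0.367 TPM in resistant, 4.46 ± 0.658 TPM in sensitive and 4.38 ± 0.27 TPM in vehicle tumors (SD over 5, 3 and 5 mice). It was lower in resistant tumors in the limma fit (-0.23 ± 0.10, adjusted p = 0.009 against vehicle; -0.35 ± 0.12, adjusted p = 0.028 against sensitive), but not against vehicle with the B libraries alone (adjusted p = 0.17), nor against sensitive tumors without mouse 6-4 (adjusted p = 0.14), 6-6 (0.060), 9-3 (0.061) or 9-6 (0.055).

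CHRM1, the M1 muscarinic acetylcholine receptor, which acts through phospholipase C, had 9.41, 6.26, 9.03, 13.2 and 7.17 TPM in resistant tumors, against 27.1, 21.8 and 19.1 TPM in sensitive and 16.9, 29.1, 41.2, 21.6 and 31.3 TPM in vehicle tumors. Resistant mice lay below all others, as the rule requires, and the closest values were resistant mouse 9-8 and vehicle mouse 1-2. Sensitive and vehicle mice overlapped. CACNA2D1, the alpha2-delta auxiliary subunit of voltage-gated calcium channels, had 3.25, 3.29, 3.68, 1.91 and 2.72 TPM in resistant tumors, against 11.5, 6.76 and 5.76 TPM in sensitive and 6.85, 9.95, 8.34, 9.56 and 9.45 TPM in vehicle tumors. TRPV6, an epithelial calcium entry channel, had 3.63, 3.8, 4.66, 4.72 and 2.36 TPM in resistant tumors, against 9.37, 8.54 and 8.21 TPM in sensitive and 9.22, 11.8, 14.6, 7.27 and 9.99 TPM in vehicle tumors. These 3 differed by -1.39 ± 0.22, -1.18 ± 0.17 and -1.12 ± 0.17 from vehicle tumors. KCNG1, a modifier subunit of voltage-gated potassium channels, differed by -0.60 ± 0.11 against vehicle and -0.69 ± 0.13 against sensitive tumors. CAMK2D, the delta subunit of calcium/calmodulin-dependent kinase II, differed by -0.79 ± 0.15 against vehicle and -0.77 ± 0.17 against sensitive tumors.

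Among the other 32 tested calcium channels, pumps and sensors, 13 were called lower and 3 higher in resistant than in vehicle tumors, with a median of -0.02 beside 0 for all genes. With median-of-ratios scaling the counts were 8 lower and 5 higher, and the higher count was 5 without mouse 1-5 and 1 without mouse 9-6. Of all 14079 tested genes, 4570 (32.5%) were called lower and 1624 (11.5%) higher than in vehicle tumors. With median-of-ratios scaling these totals were 2439 and 2540. The plasma membrane calcium pump ATP2B1 averaged 9.54 ± 0.55 TPM in resistant, 13.1 ± 2.697 TPM in sensitive and 18.1 ± 1.904 TPM in vehicle tumors and fell (-0.72 ± 0.10, adjusted p = 3.6e-05 against vehicle). ATP2C2, a secretory pathway calcium pump, averaged 11.4 ± 3.23 TPM in resistant, 17.3 ± 6.07 TPM in sensitive and 23.8 ± 1.97 TPM in vehicle tumors (-0.89 ± 0.17, adjusted p = 0.0004 against vehicle). The mitochondrial calcium uniporter MCU also fell against vehicle (-0.61 ± 0.11, adjusted p = 0.0002), whereas ORAI2, a store-operated calcium channel, rose (0.74 ± 0.10, adjusted p = 0.00039). Of 24 other potassium channel genes, 5 were lower and 7 higher than in vehicle tumors, with 3 lower without mouse 1-2 or 1-6, 2 lower when the filter was set at 5 TPM of mean level, and 3 lower and 8 higher with median-of-ratios scaling.

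**Figure D3:**
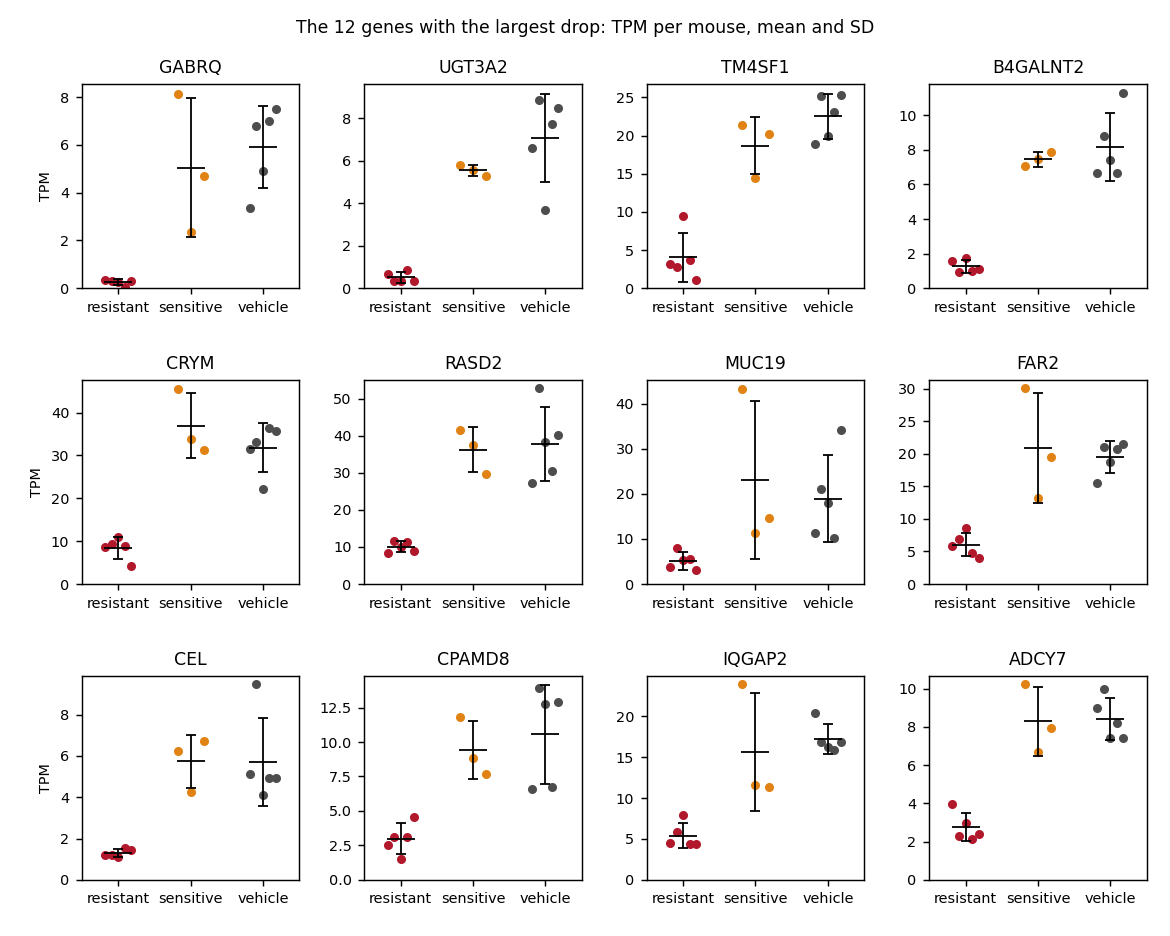
Each panel plots TPM per mouse for one of the 12 genes with the largest drop, with resistant, sensitive and vehicle tumors from left to right, the horizontal line the mean and the bars the SD. All resistant points lie below the other points in each panel, by the rule, and mouse 6-4 is the highest sensitive mouse in 10 of the 12, all but B4GALNT2 and CEL.

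RASD2, a Ras-like small GTPase also called Rhes, had 8.46, 11.7, 10.1, 11.3 and 8.88 TPM in resistant tumors, against 41.5, 37.6 and 29.7 TPM in sensitive and 27.3, 52.8, 38.4, 30.4 and 40.1 TPM in vehicle tumors. Its resistant mice lay close together, and the gene differed by -1.65 ± 0.16 against vehicle and -1.70 ± 0.18 against sensitive tumors. ADCY7, an adenylyl cyclase that makes cyclic AMP, had 3.94, 2.29, 2.96, 2.16 and 2.37 TPM in resistant tumors, against 10.3, 6.69 and 7.93 TPM in sensitive and 9, 9.99, 7.41, 8.18 and 7.395 TPM in vehicle tumors. PRKX, an X-linked catalytic subunit related to cyclic AMP-dependent kinase, had 6.79, 5.58, 6.85, 4.64 and 6.11 TPM in resistant tumors, against 15.7, 13.2 and 13.1 TPM in sensitive and 18.1, 17.6, 10.01, 14.8 and 16.3 TPM in vehicle tumors. The difference to vehicle was -1.20 ± 0.14 for ADCY7 and -1.07 ± 0.15 for PRKX. PLCB4 and PLCB2, which are phospholipase C beta enzymes, differed by -0.75 ± 0.15 against vehicle and -0.85 ± 0.18 against sensitive tumors (PLCB4), and -0.78 ± 0.15 against vehicle and -0.67 ± 0.18 against sensitive tumors (PLCB2). RAP1GAP, which switches off the small GTPase RAP1, differed by -0.60 ± 0.14 against vehicle and -0.86 ± 0.16 against sensitive tumors.

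The other adenylyl cyclases went different ways. ADCY1 averaged 85.02 ± 34.4 TPM in resistant, 40.4 ± 5.39 TPM in sensitive and 24.5 ± 4.84 TPM in vehicle tumors and rose (1.81 ± 0.23, adjusted p = 9.2e-05 against vehicle; 1.01 ± 0.26, adjusted p = 0.021 against sensitive, lost without mouse 6-4 or 6-6 at adjusted p = 0.089 and 0.055). ADCY6 averaged 52.4 ± 2.604 TPM in resistant, 61.4 ± 13.9 TPM in sensitive and 70.97 ± 9.29 TPM in vehicle tumors, was lower than vehicle (-0.29 ± 0.11, adjusted p = 0.0078) and did not pass against sensitive tumors (-0.16 ± 0.13, adjusted p = 0.28). ADCY9 passed in neither (0.05 ± 0.14, adjusted p = 0.65 against vehicle). Of the other 39 tested G protein and cyclic AMP genes, 15 were lower and 7 higher than in vehicle tumors, beside 32.5% and 11.5% of all tested genes. These list counts became 9 and 8 with median-of-ratios scaling, which gave 2439 and 2540 over all 14079 tested genes. The 6 lower and 5 higher calls against sensitive tumors became 1 and 1 without mouse 6-4, and 2 and 3 without 6-5. Without 6-6 the higher calls became 3. Over all tested genes the 1631 lower and 1346 higher calls became 690 and 890 without 6-4, and 799 and 675 without 6-5. Without 6-6 the higher calls over all tested genes were 997.

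IQGAP2, a scaffold that binds calmodulin and the GTPases CDC42 and RAC1, had 4.56, 5.81, 7.93, 4.38 and 4.41 TPM in resistant tumors, against 23.96, 11.6 and 11.4 TPM in sensitive and 20.4, 16.9, 16.2, 15.8 and 16.9 TPM in vehicle tumors. Sensitive mouse 6-4 was the highest of all, and the gene differed by -1.40 ± 0.19 against vehicle and -1.28 ± 0.22 against sensitive tumors. Its relative IQGAP1 did not pass against vehicle (0.01 ± 0.06, adjusted p = 0.1). IQGAP3, known to rise in dividing cells, averaged 5.502 ± 2.51 TPM in resistant, 1.44 ± 0.679 TPM in sensitive and 29.9 ± 5.07 TPM in vehicle tumors, so it was lower in resistant than in vehicle tumors (-2.18 ± 0.24, adjusted p = 1.2e-05) but higher than in sensitive tumors (1.41 ± 0.28, adjusted p = 0.005). CYFIP2, a subunit of the WAVE complex that drives actin branching, differed by -0.57 ± 0.10 against vehicle and -0.69 ± 0.11 against sensitive tumors. MARK1, a kinase of microtubule-associated proteins, had 7.69, 6.295, 8.32, 6.91 and 5.96 TPM in resistant tumors, against 20.4, 14.8 and 16.8 TPM in sensitive and 19.7, 24.6, 16.1, 21.8 and 22.5 TPM in vehicle tumors. Its relatives were closer to vehicle, with MARK2 lower (-0.30 ± 0.09, adjusted p = 0.0014), MARK4 not past the threshold (0.07 ± 0.08, adjusted p = 0.54), and MARK3 lower as fitted (-0.16 ± 0.10, adjusted p = 0.032) but not with either scaling (adjusted p = 0.28 and 0.19). MTUS1, a microtubule-associated protein, differed by -0.80 ± 0.17 against vehicle and -0.74 ± 0.20 against sensitive tumors, and RAB3D, a small GTPase of secretory vesicles, differed by -0.89 ± 0.12 against vehicle and -0.73 ± 0.14 against sensitive tumors.

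CEL, the bile salt-dependent lipase, had 1.19, 1.18, 1.09, 1.57 and 1.45 TPM in resistant tumors, against 6.22, 4.27 and 6.73 TPM in sensitive and 5.11, 9.46, 4.12, 4.95 and 4.93 TPM in vehicle tumors. The resistant values lay within 1.09 to 1.57 TPM. FAR2, which reduces fatty acyl-CoA to the fatty alcohols of wax and ether lipids, had 5.78, 6.85, 8.58, 4.85 and 4.07 TPM in resistant tumors, against 30.05, 13.3 and 19.5 TPM in sensitive and 15.5, 21.1, 18.8, 20.7 and 21.6 TPM in vehicle tumors. FABP5, a fatty acid carrier, had 12.9, 10.7, 12.7, 6.98 and 6.47 TPM in resistant tumors, against 20.8, 18.5 and 28.1 TPM in sensitive and 28.8, 22.7, 14.04, 44.1 and 31.4 TPM in vehicle tumors. In FABP5 the highest resistant mouse came close to vehicle mouse 1-5, and its libraries overlapped between groups. The differences to vehicle were -1.37 ± 0.18 (CEL), -1.44 ± 0.20 (FAR2) and -1.23 ± 0.26 (FABP5). FAR1, the other tested fatty acyl-CoA reductase, was lower than vehicle (-0.47 ± 0.10, adjusted p = 0.00044) and did not pass against sensitive tumors (-0.24 ± 0.12, adjusted p = 0.096). Of 11 other genes of sebaceous and wax ester synthesis, 7 were lower and 1 higher than in vehicle tumors (0 higher at the 5 TPM filter), with a median of -0.56, and 6 lower and 0 higher than in sensitive tumors, with a median of -0.80. Over all tested genes the shares were 32.5% lower and 11.5% higher against vehicle, and 11.6% and 9.56% against sensitive tumors.

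PANK1 and PANK3 are pantothenate kinases, which catalyse the first step of coenzyme A synthesis. PANK1 had 2.15, 1.56, 1.75, 2.51 and 2.58 TPM in resistant tumors, against 6.19, 5.36 and 5.02 TPM in sensitive and 6.72, 6.33, 4.37, 5.9 and 6.995 TPM in vehicle tumors. PANK3 had 25.8, 24.1, 28.6, 22 and 24.2 TPM in resistant tumors, against 57.4, 44.6 and 41 TPM in sensitive and 52.7, 51.1, 42.5, 46.03 and 60.7 TPM in vehicle tumors. The rule separated the resistant mice of both genes from all others, and the single libraries were separate too. PANK1 differed by -1.05 ± 0.13 against vehicle and -1.03 ± 0.15 against sensitive tumors. PANK3 differed by -0.86 ± 0.11 against vehicle and -0.86 ± 0.13 against sensitive tumors. PANK2 did not pass in either comparison (-0.01 ± 0.10, adjusted p = 0.22 against vehicle). PANK4, which is thought to act as a phosphatase, was lower than vehicle as fitted (-0.14 ± 0.09, adjusted p = 0.022) but not with either scaling (adjusted p = 0.20 and 0.24). PDP1, the phosphatase that activates pyruvate dehydrogenase, differed by -0.93 ± 0.14 against vehicle and -0.76 ± 0.17 against sensitive tumors.

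In sphingolipid synthesis, SPTLC2, a catalytic subunit of serine palmitoyltransferase and thus of the entry step, had 51.4, 51.1, 64.8, 43.8 and 42.6 TPM in resistant tumors, against 135, 81.4 and 89.1 TPM in sensitive and 123, 121, 110.0, 89.1 and 124 TPM in vehicle tumors. CERS4, a ceramide synthase for long acyl chains, had 35.3, 38.8, 49.1, 42.4 and 37.9 TPM in resistant tumors, against 98.6, 63.1 and 59.8 TPM in sensitive and 58.5, 94.2, 135, 60.6 and 107 TPM in vehicle tumors. The differences were -1.02 ± 0.15 against vehicle and -0.93 ± 0.17 against sensitive tumors (SPTLC2), and -0.95 ± 0.21 against vehicle and -0.77 ± 0.25 against sensitive tumors (CERS4). SPTLC1, the partner of SPTLC2 in the same enzyme, averaged 60.4 ± 2.64 TPM in resistant, 64.6 ± 5.703 TPM in sensitive and 74.7 ± 6.58 TPM in vehicle tumors and was only slightly lower than vehicle (-0.16 ± 0.07, adjusted p = 0.0035), a call that median-of-ratios scaling lost (adjusted p = 0.066). The ceramide synthases split. CERS2 averaged 365 ± 4.44 TPM in resistant, 299.8 ± 29.5 TPM in sensitive and 306 ± 13.3 TPM in vehicle tumors and rose (0.39 ± 0.06, adjusted p = 0.0027 against vehicle), CERS5 rose against vehicle (0.50 ± 0.07, adjusted p = 0.0013), and CERS6 fell against vehicle (-0.52 ± 0.12, adjusted p = 0.00076). Against sensitive tumors CERS2 was higher (0.33 ± 0.06, adjusted p = 0.0079), a call lost when mouse 6-5 was left out (adjusted p = 0.054).

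**Figure D4:**
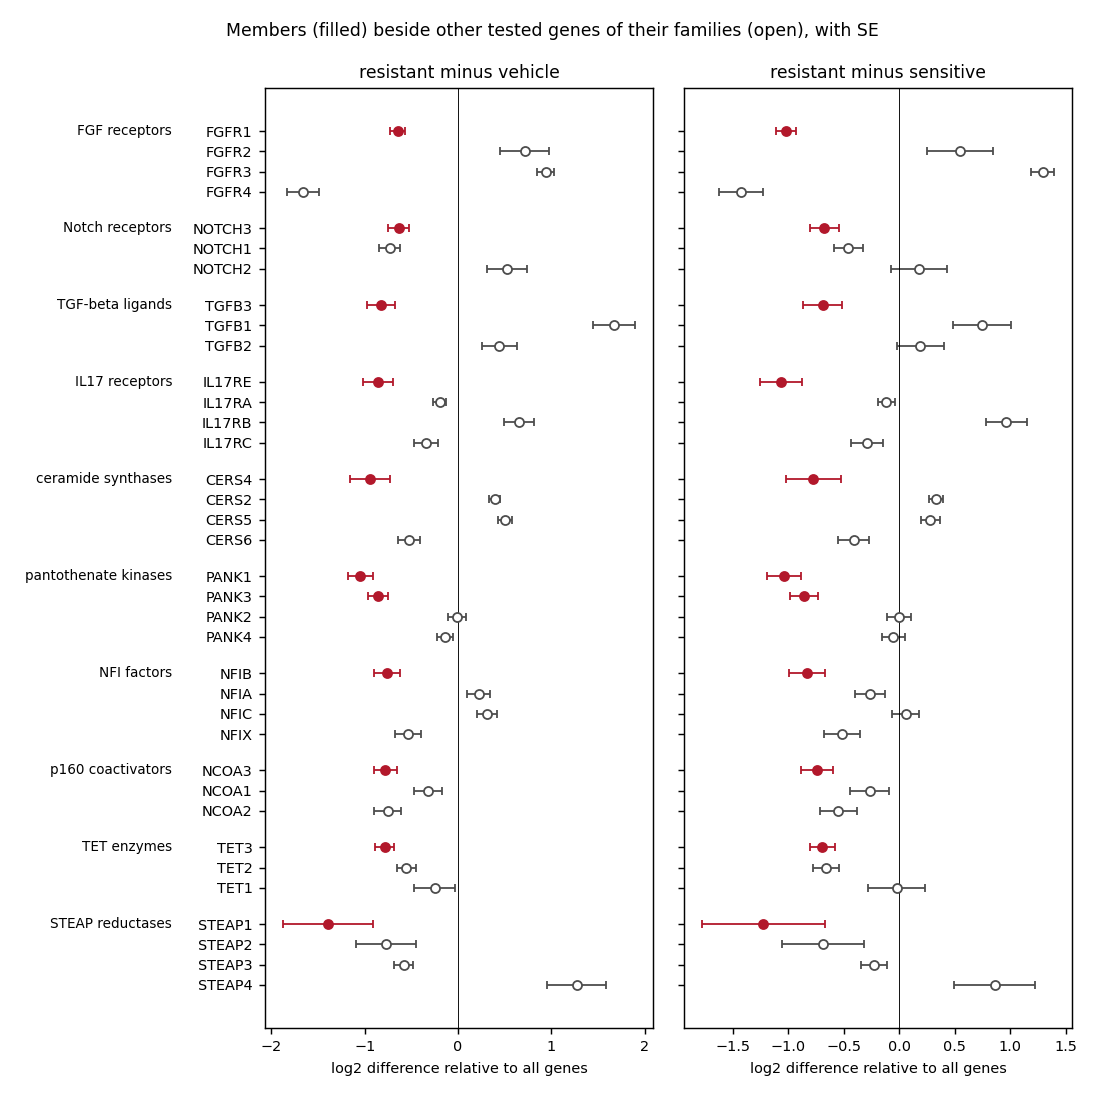
Points are log2 differences relative to all tested genes with SE, resistant minus vehicle on the left and resistant minus sensitive on the right, filled red for members and open for other tested genes of the same family. FGFR3 (0.94 and 1.29), TGFB1 (1.67 and 0.75) and IL17RB (0.66 and 0.96) lie on the opposite side of 0 from the member of their family.

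UGT3A2, a UDP-glycosyltransferase, had the second largest drop, with 0.655, 0.335, 0.335, 0.86 and 0.345 TPM in resistant tumors, against 5.82, 5.55 and 5.3 TPM in sensitive and 6.6, 8.87, 3.66, 7.73 and 8.46 TPM in vehicle tumors. The highest resistant mouse reached 0.86 TPM and the lowest of the others 3.66 TPM. The difference was -2.25 ± 0.18 against vehicle and -2.10 ± 0.21 against sensitive tumors. Tested relatives by symbol were UGT8, lower than vehicle (-0.80 ± 0.23, adjusted p = 0.0056), and UGT2B15, higher (1.08 ± 0.14, adjusted p = 0.00015). B4GALNT2, which adds the terminal sugar of the Sd(a) antigen, had 1.56, 0.925, 1.77, 1.02 and 1.1 TPM in resistant tumors, against 7.04, 7.44 and 7.87 TPM in sensitive and 6.68, 8.8, 7.41, 6.65 and 11.3 TPM in vehicle tumors. B4GALNT1 was lower than vehicle (-0.75 ± 0.27, adjusted p = 0.018), B4GALNT4 was higher (0.56 ± 0.11, adjusted p = 0.0087), and B4GALNT3 did not pass (0.42 ± 0.16, adjusted p = 0.16). NEU4, a sialidase, differed by -0.91 ± 0.19 against vehicle and -1.30 ± 0.22 against sensitive tumors. MUC19, a gel-forming mucin, had 3.795, 8.03, 5.27, 5.45 and 3.03 TPM in resistant tumors, against 43.3, 11.3 and 14.6 TPM in sensitive and 11.2, 21.1, 18.1, 10.1 and 34.1 TPM in vehicle tumors. Its spread was wide in sensitive and vehicle tumors, with mice 6-4 and 1-9 high. MUC19 differed by -1.51 ± 0.37 against vehicle and -1.77 ± 0.43 against sensitive tumors, and B4GALNT2 by -1.87 ± 0.14 against vehicle and -1.87 ± 0.16 against sensitive tumors. MUC1 averaged 2439 ± 562 TPM in resistant, 481 ± 67.04 TPM in sensitive and 689 ± 259 TPM in vehicle tumors and rose (2.01 ± 0.22, adjusted p = 2.7e-05 against vehicle; 2.36 ± 0.25, adjusted p = 0.00013 against sensitive), and MUC5B rose against vehicle (2.91 ± 0.37, adjusted p = 7.6e-05). Of 47 other mucin and glycosyltransferase genes, 12 were lower and 15 higher than in vehicle tumors, beside 32.5% and 11.5% of all tested genes.

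TM4SF1, a tetraspan surface protein of many carcinomas, had 3.2, 2.78, 9.49, 3.75 and 1.11 TPM in resistant tumors, against 21.4, 14.4 and 20.2 TPM in sensitive and 18.9, 25.2, 19.96, 23.1 and 25.4 TPM in vehicle tumors. It varied more among resistant mice than any other member, from 1.11 TPM in mouse 9-9 to 9.49 TPM in mouse 9-7, and the gene differed by -2.27 ± 0.31 against vehicle and -2.09 ± 0.35 against sensitive tumors. CRYM, a thyroid hormone binding protein, had 8.64, 9.31, 10.9, 8.9 and 4.12 TPM in resistant tumors, against 45.5, 33.9 and 31.3 TPM in sensitive and 31.6, 33.2, 22.2, 36.4 and 35.6 TPM in vehicle tumors. Sensitive mouse 6-4 was the highest of all for CRYM, and resistant mouse 9-9 the lowest. The difference was -1.72 ± 0.21 against vehicle and -2.02 ± 0.24 against sensitive tumors. STEAP1, a membrane protein of the metalloreductase family, had 0.765, 0.77, 1.12, 0.975 and 0.33 TPM in resistant tumors, against 6.39, 2.6 and 1.91 TPM in sensitive and 1.35, 2.75, 20.3, 1.86 and 5.46 TPM in vehicle tumors. Vehicle mouse 1-5 was far above the rest, and without it the difference to vehicle, as measured, was -1.01 rather than -1.53. Without sensitive mouse 6-4 the measured difference to sensitive tumors was -0.86 rather than -1.27. It was the 1 member not called lower than sensitive tumors in the fit. STEAP3 was lower than vehicle (-0.58 ± 0.10, adjusted p = 0.00012), STEAP4 higher (1.27 ± 0.32, adjusted p = 0.011), and STEAP2 lower as fitted (-0.77 ± 0.32, adjusted p = 0.033) but not with median-of-ratios scaling (adjusted p = 0.056).

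FGFR1, which binds fibroblast growth factors and signals through a tyrosine kinase, had 72.3, 70.8, 81.3, 71.6 and 67.04 TPM in resistant tumors, against 136, 171 and 152 TPM in sensitive and 137, 138, 116, 116 and 122 TPM in vehicle tumors. It differed by -0.65 ± 0.08 from vehicle and by -1.02 ± 0.09 from sensitive tumors, whose mean was above that of vehicle, with overlapping mice. FGFR4 averaged 95.6 ± 21.95 TPM in resistant, 268 ± 78.1 TPM in sensitive and 331 ± 49.1 TPM in vehicle tumors and fell in both (-1.66 ± 0.17, adjusted p = 5e-06 against vehicle; -1.43 ± 0.20, adjusted p = 0.00045 against sensitive). FGFR3 averaged 33.7 ± 3.13 TPM in resistant, 13.6 ± 0.476 TPM in sensitive and 19 ± 2.47 TPM in vehicle tumors and rose in both (0.94 ± 0.09, adjusted p = 2.4e-05; 1.29 ± 0.11, adjusted p = 2.9e-05). FGFR2 averaged 17.3 ± 7.41 TPM in resistant, 11.3 ± 1.55 TPM in sensitive and 11.3 ± 4.801 TPM in vehicle tumors and did not pass against vehicle (0.71 ± 0.26, adjusted p = 0.085), though it did with both scalings (adjusted p = 0.042 and 0.036). Of 13 other FGF pathway genes, 2 were lower and 5 higher than in vehicle tumors, beside 32.5% and 11.5% of all tested genes. The higher count in this list was 3 from the A libraries alone or at the 5 TPM filter.

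NOTCH3, a receptor cleaved on ligand binding, had 27.1, 21.8, 35.7, 25.7 and 22.3 TPM in resistant tumors, against 47.6, 39.7 and 43.8 TPM in sensitive and 44.97, 50.6, 44.04, 42.3 and 44.6 TPM in vehicle tumors. NRARP, which Notch signaling induces and which in turn limits it, had 4.71, 3.77, 4.88, 3.87 and 3.89 TPM in resistant tumors, against 9.995, 8.38 and 10.1 TPM in sensitive and 8.94, 12.6, 12.5, 11.5 and 11.6 TPM in vehicle tumors. NRARP was the more separated of the pair, at -1.11 ± 0.11 against vehicle and -0.96 ± 0.13 against sensitive tumors, with NOTCH3 at -0.64 ± 0.11 against vehicle and -0.68 ± 0.13 against sensitive tumors. NOTCH1 averaged 6.23 ± 0.811 TPM in resistant, 9.19 ± 0.859 TPM in sensitive and 12.2 ± 1.85 TPM in vehicle tumors and fell against vehicle (-0.73 ± 0.11, adjusted p = 6.6e-05) and sensitive tumors (-0.46 ± 0.13, adjusted p = 0.016), the call against sensitive tumors being lost without mouse 6-4 or 6-5 (adjusted p of 0.078 at most). NOTCH2 did not pass (0.52 ± 0.22, adjusted p = 0.16 against vehicle). RBPJ, the DNA-binding partner of cleaved Notch, was lower than vehicle (-0.20 ± 0.06, adjusted p = 0.00087), as was the coactivator MAML1 (-0.27 ± 0.08, adjusted p = 0.001), while RFNG, which adds sugars to Notch, was higher (0.48 ± 0.07, adjusted p = 0.0014). Of 20 other Notch pathway genes, 7 were lower and 4 higher than in vehicle tumors, 7 lower and 0 higher than in sensitive tumors, and 0 lower and 3 higher in sensitive than in vehicle tumors. The 7 lower calls against sensitive tumors became 3 without mouse 6-5, and median-of-ratios scaling turned those against vehicle into 5 lower and 6 higher. Over all tested genes the shares were 32.5% lower and 11.5% higher against vehicle, and 11.6% and 9.56% against sensitive tumors. In sensitive versus vehicle tumors they were 12.6% and 3.16%. Without mouse 6-5 the 1631 lower calls against sensitive tumors over all tested genes became 799. Median-of-ratios scaling turned the 4570 lower and 1624 higher calls against vehicle into 2439 and 2540.

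TGFB3, a ligand of the TGF-beta receptors, had 49.96, 31.9, 52.8, 53.2 and 38.99 TPM in resistant tumors, against 92.8, 68.4 and 65.8 TPM in sensitive and 92.3, 85.8, 111, 76.2 and 77.1 TPM in vehicle tumors. By the rule, resistant mice lay below all others, while sensitive and vehicle mice overlapped. The difference was -0.83 ± 0.15 against vehicle and -0.69 ± 0.17 against sensitive tumors. TGFB1 averaged 37.5 ± 3.98 TPM in resistant, 23.9 ± 9.54 TPM in sensitive and 12.7 ± 3.85 TPM in vehicle tumors and rose against vehicle (1.67 ± 0.23, adjusted p = 0.00016), without passing against sensitive tumors (0.75 ± 0.26, adjusted p = 0.068). TGFB2 did not pass (0.44 ± 0.18, adjusted p = 0.19 against vehicle). Of 35 other TGF-beta and BMP genes, 18 were lower and 9 higher than in vehicle tumors, which became 10 and 12 with median-of-ratios scaling. Of all 14079 tested genes, 4570 (32.5%) were lower and 1624 (11.5%) higher, which became 2439 and 2540 with that scaling. WWTR1, the Hippo pathway coactivator also called TAZ, had 2.07, 2.08, 3.62, 1.53 and 1.21 TPM in resistant tumors, against 5.47, 4.91 and 4.36 TPM in sensitive and 4.98, 6.66, 4.87, 4.69 and 5.81 TPM in vehicle tumors. WWTR1 differed by -0.94 ± 0.17 against vehicle and -0.93 ± 0.20 against sensitive tumors. Its partner in the pathway YAP1 was lower than vehicle (-0.30 ± 0.09, adjusted p = 0.0013) and did not pass against sensitive tumors (-0.11 ± 0.10, adjusted p = 0.28). Of 23 other Hippo pathway genes, 14 were lower and 1 higher than in vehicle tumors, with a median of -0.24.

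LIFR, which binds leukemia inhibitory factor and signals together with gp130, had 2.295, 4.37, 3.34, 2.5 and 2.55 TPM in resistant tumors, against 8.72, 6.2 and 5.41 TPM in sensitive and 5.73, 6.86, 8.9, 5.34 and 8.26 TPM in vehicle tumors. The difference was -0.87 ± 0.17 against vehicle and -0.91 ± 0.20 against sensitive tumors. The gene for gp130, IL6ST, averaged 64.5 ± 21.3 TPM in resistant, 26.5 ± 3.71 TPM in sensitive and 19.6 ± 7.05 TPM in vehicle tumors and rose (1.82 ± 0.22, adjusted p = 7.7e-05 against vehicle; 1.25 ± 0.26, adjusted p = 0.0064 against sensitive). JAK1, a kinase bound to gp130, rose too (0.83 ± 0.08, adjusted p = 3e-05 against vehicle; 0.64 ± 0.09, adjusted p = 0.0012 against sensitive). IL17RE, a receptor subunit for IL-17C, had 24.7, 18.5, 28.7, 23.6 and 14.7 TPM in resistant tumors, against 51.7, 41.6 and 50.2 TPM in sensitive and 41.4, 53.6, 42.2, 34.2 and 50.9 TPM in vehicle tumors. The resistant and other mice did not overlap, which the rule requires. IL17RE differed by -0.86 ± 0.16 against vehicle and -1.07 ± 0.19 against sensitive tumors. IL17RA, its co-receptor, was lower than vehicle by a small amount (-0.20 ± 0.07, adjusted p = 0.0016), IL17RC was lower (-0.34 ± 0.13, adjusted p = 0.0081), and IL17RB was higher (0.66 ± 0.16, adjusted p = 0.018 against vehicle, lost with the A libraries alone; 0.96 ± 0.19, adjusted p = 0.0046 against sensitive). IL1R1 (-1.22 ± 0.18, adjusted p = 7.9e-05) and IL10RB (-0.51 ± 0.08, adjusted p = 5.2e-05) fell against vehicle. Of 37 other JAK-STAT and cytokine receptor genes, 9 were lower and 10 higher than in vehicle tumors (7 and 13 with median-of-ratios scaling), and 1 lower and 6 higher than in sensitive tumors. Over all tested genes the shares were 32.5% lower and 11.5% higher against vehicle, and 11.6% and 9.56% against sensitive tumors. With median-of-ratios scaling, 2439 of all 14079 tested genes were lower and 2540 higher than in vehicle tumors.

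PTK7, a receptor pseudokinase of Wnt signaling, differed by -1.02 ± 0.11 against vehicle and -0.94 ± 0.13 against sensitive tumors. EGFL7, a secreted EGF-like protein, differed by -0.70 ± 0.12 against vehicle and -0.68 ± 0.14 against sensitive tumors, and KAL1, which encodes the matrix protein anosmin-1, differed by -0.79 ± 0.16 against vehicle and -0.68 ± 0.18 against sensitive tumors. CPAMD8, of the alpha-2-macroglobulin family, had 2.51, 3.095, 1.52, 3.14 and 4.595 TPM in resistant tumors, against 11.8, 8.86 and 7.69 TPM in sensitive and 6.6, 13.9, 12.8, 6.73 and 12.9 TPM in vehicle tumors. Its resistant mice spread widely, and the difference was -1.40 ± 0.24 against vehicle and -1.39 ± 0.27 against sensitive tumors. Marker lists of other cell types were summed because tumors are bulk samples, in which fewer cells of a type and less RNA per cell cannot be told apart. Luminal epithelial markers (8 of 8 tested) summed to 10254 to 13757 TPM in resistant, 7389 to 9513 TPM in sensitive and 7974 to 12245 TPM in vehicle tumors. The 5 basal markers summed to 6.45 to 8.69 TPM in resistant, 17.0 to 34.2 TPM in sensitive and 7.53 to 24.9 TPM in vehicle tumors. The 8 fibroblast markers summed to at most 10.5 TPM in resistant, 8.36 TPM in sensitive and 13.2 TPM in vehicle tumors. The 7 immune markers summed to at most 12.2, 10.1 and 7.18 TPM and the 4 adipocyte markers to at most 0.465, 1.70 and 1.17 TPM. The 5 endothelial and 4 muscle markers summed to at most 1.89 TPM in any mouse. Tested were only 3 of the 5 basal, 1 of the 8 fibroblast, 3 of the 7 immune and 1 of the 4 adipocyte markers. The other basal, fibroblast, immune and adipocyte markers were under 1 TPM in all mice. CD3E, ADIPOQ and LEP were listed at 0 in all mice. The tumor cells are human and the host is a mouse, and the handling of mouse reads was not stated. Low sums of human fibroblast, immune, adipocyte, endothelial or muscle markers therefore do not measure the amount of host cells. The part of these differences in the members' values was not tested.

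Transcription factors include CEBPA, a leucine zipper factor of differentiation in epithelial and blood cells, which had 25.9, 19.9, 27.7, 25.5 and 22.4 TPM in resistant tumors, against 62.7, 54.6 and 55.3 TPM in sensitive and 48.7, 67.97, 78.4, 57.05 and 63.9 TPM in vehicle tumors. It differed by -1.20 ± 0.12 against vehicle and -1.17 ± 0.14 against sensitive tumors. CEBPB (0.08 ± 0.12, adjusted p = 0.72), CEBPD (0.43 ± 0.16, adjusted p = 0.15) and CEBPG (0.04 ± 0.11, adjusted p = 0.49) did not pass against vehicle. CEBPD did with both scalings (adjusted p = 0.044 and 0.029). SP6, a factor of the SP family, had 5.91, 7.87, 10.4, 7.63 and 4.92 TPM in resistant tumors, against 18.6, 16 and 17.6 TPM in sensitive and 21.6, 23.8, 16.7, 18.7 and 19.8 TPM in vehicle tumors. NFIB, a nuclear factor I gene of mammary and lung development, had 18.3, 21.5, 18.6, 12.2 and 16.3 TPM in resistant tumors, against 42.8, 27.7 and 27.9 TPM in sensitive and 32.03, 32.4, 34.6, 30.1 and 34.3 TPM in vehicle tumors. NFIX fell as well (-0.54 ± 0.14, adjusted p = 0.0021 against vehicle), while NFIA (0.22 ± 0.12, adjusted p = 0.59) and NFIC (0.31 ± 0.10, adjusted p = 0.19) did not pass. NFIC was higher with both scalings (adjusted p = 0.026 and 0.019). SP6 differed by -1.23 ± 0.15 against vehicle and -1.13 ± 0.17 against sensitive tumors, and NFIB by -0.76 ± 0.14 against vehicle and -0.83 ± 0.16 against sensitive tumors.

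TFAP2B, an AP-2 factor found in mammary luminal cells, had 48.6, 47.3, 65.6, 45.9 and 40.8 TPM in resistant tumors, against 116, 71.9 and 79.9 TPM in sensitive and 112, 116, 98.6, 90.8 and 107 TPM in vehicle tumors. TFAP2A was slightly lower than vehicle (-0.22 ± 0.09, adjusted p = 0.0049), and TFAP2C did not pass against vehicle (0.30 ± 0.11, adjusted p = 0.26). SOX9, a factor of mammary progenitor cells, had 27.8, 21.6, 29.5, 22.2 and 16.1 TPM in resistant tumors, against 44.3, 41.1 and 36.4 TPM in sensitive and 38.9, 49.2, 30.4, 34.6 and 44.8 TPM in vehicle tumors. TBX3, a T-box factor needed for mammary bud formation, had 5.73, 6.81, 6.89, 7.84 and 8.42 TPM in resistant tumors, against 15.8, 10.7 and 11.7 TPM in sensitive and 13.1, 15.6, 11.9, 9.36 and 11.3 TPM in vehicle tumors. Resistant values of SOX9 and TBX3 came close to the lowest vehicle mouse, 1-5 for SOX9 and 1-6 for TBX3. The differences to vehicle were -0.94 ± 0.14 (TFAP2B), -0.61 ± 0.16 (SOX9) and -0.56 ± 0.14 (TBX3). Of 53 other luminal and developmental factors, 28 were lower and 5 higher than in vehicle tumors, with a median of -0.22, and 12 lower and 5 higher than in sensitive tumors. With median-of-ratios scaling the counts against vehicle were 21 and 7, beside 2439 and 2540 over all 14079 tested genes. The higher count against vehicle was 8 without mouse 1-5, and that against sensitive tumors 3 without mouse 6-4. In these settings the higher calls over all tested genes were 1694 in place of 1624 and 890 in place of 1346. Over all tested genes the shares were 32.5% lower and 11.5% higher against vehicle, and 11.6% and 9.56% against sensitive tumors. DACH1 averaged 0.923 ± 0.254 TPM in resistant, 3.89 ± 1.598 TPM in sensitive and 5.38 ± 1.03 TPM in vehicle tumors and fell against both (-1.59 ± 0.17, adjusted p = 7.3e-06; -1.26 ± 0.20, adjusted p = 0.00089). SIX4 (-1.36 ± 0.19, adjusted p = 4.9e-05) and ELF5, a factor of alveolar differentiation (-1.04 ± 0.12, adjusted p = 1.3e-05), also fell against vehicle.

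NCOA3, a p160 coactivator of the estrogen receptor, had 17.6, 16.7, 17.96, 17.1 and 18.3 TPM in resistant tumors, against 35.6, 30.1 and 27.5 TPM in sensitive and 31.99, 37.6, 40.6, 23.9 and 38.4 TPM in vehicle tumors. Its 5 resistant values lay within 16.7 to 18.3 TPM, the tightest of the 80, and the difference was -0.78 ± 0.12 against vehicle and -0.74 ± 0.14 against sensitive tumors. NCOA2 fell against vehicle (-0.75 ± 0.14, adjusted p = 0.00029) and sensitive tumors (-0.55 ± 0.16, adjusted p = 0.021), though not against sensitive tumors without mouse 6-4 (adjusted p = 0.12). NCOA1 was lower than vehicle as fitted (-0.33 ± 0.15, adjusted p = 0.023) but not with either scaling (adjusted p = 0.081 and 0.099). TET3, which oxidises 5-methylcytosine, had 6.03, 5.6, 6.76, 5.495 and 5.81 TPM in resistant tumors, against 11.95, 10.1 and 9.695 TPM in sensitive and 12.05, 12.8, 13.1, 9.84 and 13.2 TPM in vehicle tumors. TET3 differed by -0.79 ± 0.10 against vehicle and -0.69 ± 0.11 against sensitive tumors. TET2, the next gene but one outside the set, was lower than vehicle (-0.55 ± 0.10, adjusted p = 0.0002) and sensitive tumors (-0.66 ± 0.12, adjusted p = 0.0018), differences that the rule also ranked. KMT2E, a chromatin-binding protein of the trithorax family, differed by -0.67 ± 0.15 against vehicle and -0.93 ± 0.17 against sensitive tumors, and CECR2, a bromodomain protein, differed by -1.22 ± 0.19 against vehicle and -1.16 ± 0.21 against sensitive tumors. Of 79 other chromatin regulators, 36 were lower and 7 higher than in vehicle tumors, which became 17 and 9 with median-of-ratios scaling. Quantile normalization left 18 lower. Over all 14079 tested genes, the 4570 lower calls against vehicle (32.5%) became 2439 with median-of-ratios scaling and 2775 with quantile normalization. Against sensitive tumors 22 of the 79 were lower and 3 higher, beside 11.6% and 9.56% of all tested genes. Median-of-ratios scaling did not alter these counts of 22 and 3, and quantile normalization gave 29 and 3. Over all tested genes the 1631 lower calls against sensitive tumors became 1335 and 1808 with these scalings. The lower count of the list was 9 without sensitive mouse 6-4, 10 without 6-5 and 14 from the A libraries alone. In these settings the lower calls over all tested genes were 690, 799 and 1086. The histone demethylase KDM5B fell against vehicle (-0.36 ± 0.07, adjusted p = 7.6e-05) and against sensitive tumors (-0.75 ± 0.08, adjusted p = 6e-05). The polycomb protein CBX6 fell against both (-0.63 ± 0.10, adjusted p = 8.6e-05; -0.54 ± 0.12, adjusted p = 0.0049). EZH2 (-1.41 ± 0.12, adjusted p = 9e-07) and DNMT3B (-1.19 ± 0.10, adjusted p = 9e-07) fell against vehicle, and EZH2 did not pass against sensitive tumors (0.04 ± 0.14, adjusted p = 0.99).

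Among 41 neurosecretory and synaptic genes other than GABRQ and RAB3D, 10 were lower and 12 higher than in vehicle tumors, with 6 lower at a filter of 5 TPM on the mean. Of all tested genes, 32.5% were lower and 11.5% higher. SYT8, a synaptotagmin, averaged 49.1 ± 33.1 TPM in resistant, 6.21 ± 3.68 TPM in sensitive and 2.72 ± 0.663 TPM in vehicle tumors and rose (3.72 ± 0.37, adjusted p = 1.1e-05 against vehicle), as did SYT5 (1.51 ± 0.18, adjusted p = 5.6e-05) and the adhesion protein NRCAM (1.87 ± 0.16, adjusted p = 3.4e-06). NMU, a neuropeptide, fell against vehicle (-2.35 ± 0.23, adjusted p = 4.4e-06) and was higher than in sensitive tumors (1.66 ± 0.27, adjusted p = 0.0015). Of 30 metal handling genes other than STEAP1, 9 were lower and 6 higher than in vehicle tumors, which became 4 and 8 with median-of-ratios scaling. That scaling gave 2439 lower and 2540 higher over all 14079 tested genes.

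The remaining members are of mixed function. PADI2, which converts arginine to citrulline in proteins, had 49.6, 49.7, 60.8, 63.6 and 53.6 TPM in resistant tumors, against 166, 99.2 and 81.5 TPM in sensitive and 87.7, 144, 136, 105 and 137 TPM in vehicle tumors. C1orf115 was among the most abundant, with 90.9, 87.8, 107, 96.3 and 82.4 TPM in resistant tumors, against 279.5, 213 and 199.9 TPM in sensitive and 167, 236, 298, 163 and 239 TPM in vehicle tumors. PADI2 and C1orf115 differed by -0.97 ± 0.18 and -1.07 ± 0.15 from vehicle. DBP, a leucine zipper factor whose transcript cycles with the circadian clock, differed by -0.85 ± 0.16 against vehicle and -0.71 ± 0.19 against sensitive tumors. DCP2, which removes the mRNA cap, differed by -0.91 ± 0.10 against vehicle and -0.78 ± 0.12 against sensitive tumors, NANOS1, an RNA-binding repressor of translation, differed by -0.91 ± 0.12 against vehicle and -0.82 ± 0.13 against sensitive tumors, and SIDT1, of a family of RNA transporters, differed by -0.78 ± 0.10 against vehicle and -0.85 ± 0.11 against sensitive tumors. The zinc finger genes ZNF608, ZNF827 and ZNF467 differed by -1.001, -0.82 and -0.62 from vehicle. ZCCHC2, PPID (a cyclophilin), SLX4IP (a partner of the nuclease scaffold SLX4), KLHDC10, LGALSL, MEST (an imprinted gene), C2orf54, C5orf54, LINC00673, LINC00957 and the entry with no symbol lay at -0.91 to -0.61 against vehicle and at -1.08 to -0.67 against sensitive tumors. HIST1H3H, a histone H3 gene, differed by -1.08 ± 0.13 against vehicle and -1.10 ± 0.16 against sensitive tumors, and MAGED4B differed by -0.78 ± 0.15 against vehicle and -0.73 ± 0.17 against sensitive tumors. Both share sequence with near-identical copies, so their values are uncertain.

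On the chromosomes, 77 members could be placed with GENCODE 29 on GRCh38. Chromosome 7 held 8 (10.4%), beside 4.73% of the 10241 placed genes of at least 5 TPM in vehicle tumors, chromosome 5 held 7 (9.09%, beside 4.27%), and chromosomes 13 and 21 held none (beside 1.63% and 0.908%). The median gene span was 41.9 kb, beside 30.6 kb. Members with starts within 1 Mb of each other made up 8 pairs. TM4SF1 (chromosome 3, 149369022 to 149377865) and WWTR1 (chromosome 3, 149517235 to 149736714) start 359 kb apart on the same strand, MARK1 and C1orf115 162 kb apart on chromosome 1, and PLCB2 and C15orf52 33.03 kb apart on chromosome 15, each with no other tested gene starting between them. These distances use GENCODE starts. The WWTR1 promoter shown above (chr3:149703224-149703523) belongs to a RefSeq start inside the GENCODE span of that gene. RSC1A1 (chromosome 1, 15659869 to 15661722) lies within DDI2 (chromosome 1, 15617500 to 15669044) on the same strand, so reads may be shared. DDI2, a protease, differed by -0.77 ± 0.13 against vehicle and -0.92 ± 0.14 against sensitive tumors, and RSC1A1 differed by -0.66 ± 0.14 against vehicle and -0.72 ± 0.16 against sensitive tumors. CEBPA (chromosome 19, 33299934 to 33302564, minus strand) and CEBPA-AS1 (chromosome 19, 33302857 to 33305054, plus strand) start head to head, with 0.293 kb between them. Strand use in the counting was not given in the sources used. CEBPA-AS1 differed by -0.94 ± 0.20 against vehicle and -0.92 ± 0.24 against sensitive tumors.

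The other 3 pairs were wider apart. KLHDC10 and MEST, 416 kb apart on chromosome 7, had 3 tested genes starting between them, of which CPA4, a carboxypeptidase, fell against both vehicle (-1.25 ± 0.18, adjusted p = 7.5e-05) and sensitive tumors (-1.10 ± 0.21, adjusted p = 0.0029) and CEP41 fell against vehicle (-0.29 ± 0.10, adjusted p = 0.0047). TMEM209 was lower than vehicle as fitted (-0.18 ± 0.09, adjusted p = 0.01) but not with either scaling (adjusted p = 0.10 and 0.17). C2orf54 and NEU4 on chromosome 2 (912 kb) had 15 tested genes between them, and EGFL7 and NRARP on chromosome 9 (643 kb) had 37. The 5 tested neighbors on each side of a member had a median relative difference to vehicle tumors of -0.73 to 0.35, with a median of -0.05 over the 77 members. The median was under -0.3 for PLCB2 and C15orf52, neighbors of each other.

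Around that pair, 8 of 10 tested neighbors of PLCB2 were called lower than vehicle, beside 32.5% of all tested genes. One of the 8 is C15orf52 itself, which the rule chose, and SRP14 (-0.01) and IVD (-0.08), called lower as measured, lay close to the median of all tested genes. PAK6, a p21-activated kinase, averaged 0.668 TPM in resistant, 2.66 TPM in sensitive and 7.204 TPM in vehicle tumors (-2.21 ± 0.16, adjusted p = 2.8e-07 against vehicle; -1.13 ± 0.18, adjusted p = 0.001 against sensitive), and it was lower in sensitive than in vehicle tumors too (-1.10 ± 0.18, adjusted p = 0.00062). BMF, a pro-apoptotic BCL2 family gene, averaged 7.68 TPM in resistant, 20.8 TPM in sensitive and 37.6 TPM in vehicle tumors (-1.97 ± 0.24, adjusted p = 2.7e-05 against vehicle; -1.25 ± 0.28, adjusted p = 0.0067 against sensitive). The mitotic genes BUB1B (-1.67 ± 0.19, adjusted p = 1.5e-05) and KNSTRN (-1.39 ± 0.12, adjusted p = 9.6e-07) were lower than vehicle and higher than in sensitive tumors (0.999 ± 0.22, adjusted p = 0.01; 0.57 ± 0.14, adjusted p = 0.018). BAHD1, a heterochromatin protein, fell against vehicle (-0.48 ± 0.09, adjusted p = 0.00014) and sensitive tumors (-0.46 ± 0.10, adjusted p = 0.0046). SRP14-AS1 and PHGR1 did not pass against vehicle (0.24 ± 0.16, adjusted p = 0.61; 0.61 ± 0.39, adjusted p = 0.34). PLCB2 and C15orf52 themselves lie on chromosome 15, 40278176 to 40307935 (PLCB2) and 40331452 to 40340967 (C15orf52).

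**Figure D5:**
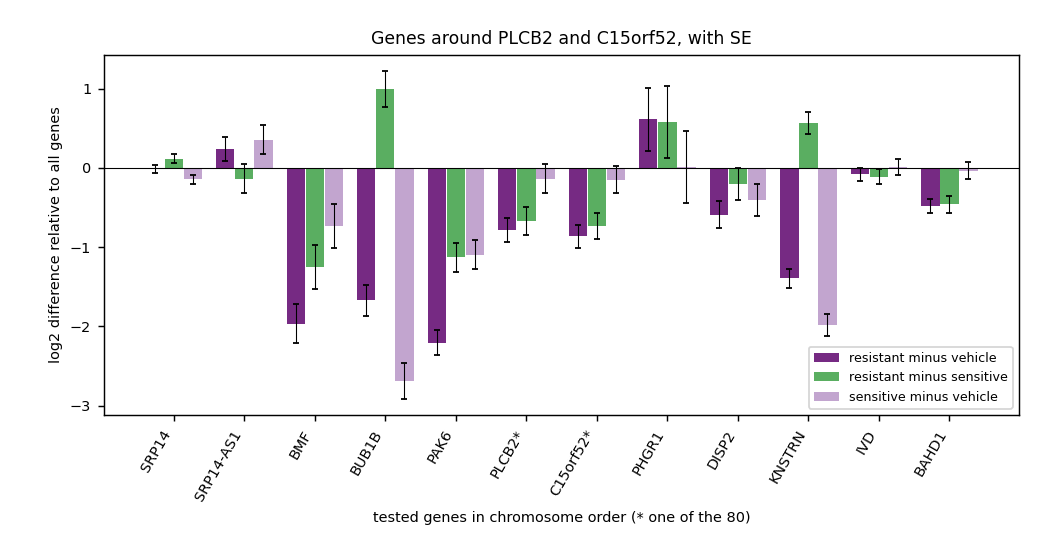
Bars are log2 differences relative to all tested genes with SE for PLCB2, C15orf52 and the tested genes around them in chromosome order, for resistant minus vehicle, resistant minus sensitive and sensitive minus vehicle. PAK6 (-2.21) and BMF (-1.97) show the lowest resistant minus vehicle bars, and BUB1B (-2.69) and KNSTRN (-1.98) the lowest sensitive minus vehicle bars.

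Mice of 1 group did not rank alike over the members. In resistant tumors mouse 9-7 was the highest of the 5 for 38 members, and mice 9-6 and 9-9 were the lowest for 23 each. In sensitive tumors mouse 6-4 was the highest of 3 for 63 members. In vehicle tumors mouse 1-6 was the lowest of 5 for 42 members and mouse 1-4 for none. The mean log2(TPM + 1) over the members was 3.17 to 3.38 in resistant, 4.19 to 4.52 in sensitive and 4.18 to 4.54 in vehicle mice, and the mean over all tested genes was 4.05 to 4.13, 4.06 to 4.13 and 4.12 to 4.21. Sensitive and vehicle mice overlapped in the first of these, and mouse 6-4 was the highest sensitive mouse in both. Mouse 9-7 was likewise the highest resistant mouse and mouse 1-6 the lowest vehicle mouse in both means. The lowest resistant mouse was 9-9 over the members and 9-8 over all tested genes. Libraries A and B of a mouse differed by a median of 0.11 on the log2 scale in the median member, against a resistant range of 0.51.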

How the data were processed

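Bulk RNA of 13 xenografts was sequenced as 26 libraries. The deposited table holds TPM, the unit the authors made; per the submitters' processing notes FastQC, STAR, HTSeq and RSEM and the builds GRCh38 and GRCm38 were used, without versions or roles, and the handling of mouse reads was not stated there. Library sums were 999849.7 to 999889 TPM, so depth is unknown and no counting interval is given. Of 30332 entries, 1 named "unknown" (1.49 to 5.51 TPM) was left out, and 23 carry a number in place of a symbol and are not named.

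The mouse was the replicate, and p-values set a group difference against the spread between these mice. The log2(TPM + 1) values of A and B were averaged, 14079 genes with a mean of at least 1 TPM in at least 3 mice were fitted with limma 3.58.1 (R 4.3.3, trend option, 13 mice, 3 comparisons), and a gene was called at a Benjamini-Hochberg adjusted p under 0.05 over all genes, two-sided. The fit was tested on simulated data. Every adjusted p in the text comes from this limma fit or a named alternative of it, and SEs are as fitted. Fold changes on the log2(TPM + 1) scale understate those of low genes.

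Members and gene lists were chosen with earlier results of these data known. Genes named are the 24 members with the largest drop, members in a list, up to 4 other genes by adjusted p in lists with at least 2 members, the 3 genes on each side of the limit, close pairs and the genes between them, up to 2 relatives by symbol and the members of widest and narrowest range. A choice among these, the further members with values in each mouse, the further relatives and the neighbors on chromosome 15 were made after values were seen. Older symbols were matched through RefSeq synonyms. Alternatives were another pseudocount, 2 scalings, 1 library letter alone, each mouse left out, 2 other filters, robust eBayes, the 2 compared groups alone, a fit of 26 libraries and other limits in the rule.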

Additional observations from a re-analysis of the deposited data

Results flagged for a closer look

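For each member the lowest and highest mouse of the 5 resistant and 5 vehicle mice were compared with the other 4 on the log2 scale by Dixon's ratio, whose critical value for 5 samples is 0.71; the 3 sensitive mice were too few. Of 160 groups examined, 9 held a far value, and chance gives about 1 in 20. In resistant tumors, GABRQ was 0.05 TPM in resistant mouse 9-8, with the other 4 at 0.265 to 0.325 TPM, and CRYM was 4.12 TPM in resistant mouse 9-9, with the other 4 at 8.64 to 10.9 TPM. In vehicle tumors mouse 1-5 stood apart 4 times. There CRYM was 22.2 TPM in vehicle mouse 1-5, with the other 4 at 31.6 to 36.4 TPM, and MEST was 31.4 TPM in vehicle mouse 1-5, with the other 4 at 41.3 to 45.6 TPM. C2orf54 was 54.9 TPM in vehicle mouse 1-5, with the other 4 at 24.7 to 31.2 TPM. RAP1GAP was 85.95 TPM in vehicle mouse 1-5, with the other 4 at 53.4 to 60.8 TPM. For mouse 1-2, IQGAP2 was 20.4 TPM in vehicle mouse 1-2, with the other 4 at 15.8 to 16.9 TPM, and NRARP was 8.94 TPM in vehicle mouse 1-2, with the other 4 at 11.5 to 12.6 TPM. CEL was 9.46 TPM in vehicle mouse 1-4, with the other 4 at 4.12 to 5.11 TPM.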

How the results depend on the processing

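With median-of-ratios scaling, genes lower and higher in resistant versus vehicle tumors were 2439 and 2540, those in sensitive versus vehicle 1066 and 771, and 491 genes in place of 902 passed the membership rule. With quantile normalization, 2775 were lower in resistant versus vehicle, 989 lower and 938 higher in sensitive versus vehicle, and 599 passed the rule. With the A libraries alone, 1086 were lower in resistant versus sensitive and 243 higher in sensitive versus vehicle. The 2 compared groups alone gave 239 higher in sensitive versus vehicle, and a limit of 0.2 on the difference between sensitive and vehicle tumors kept 53 of the 80. The cause of these shifts was not tested, except that the stricter limit admits fewer genes.

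Leaving out 1 mouse at a time, 842 to 1198 genes passed the rule and 59 to 77 of the 80 remained. Genes lower in resistant versus vehicle numbered 3898 to 4903 and higher 1360 to 1694, in resistant versus sensitive 690 to 1977 and 675 to 1594, and in sensitive versus vehicle 802 to 1911 and 99 to 544. Resistant versus sensitive gave 690 lower and 890 higher without mouse 6-4, and 799 and 675 without 6-5. Sensitive versus vehicle gave 802 lower and 99 higher without 6-5, 964 and 110 without 6-6, and 288 higher without 1-9.

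The letters A and B showed no difference shared between groups. The A minus B differences, averaged over the mice of a group, correlated across genes between 2 groups at -0.05, -0.05 and -0.004. Whether the letter pairs mice within a group was not examined. A fit of 26 libraries took the mouse as the block and the letter as a covariate. The estimated correlation between the libraries of a mouse was 0.64. That fit gave 4696 lower and 1614 higher in resistant versus vehicle, 1909 and 1559 in resistant versus sensitive, and 2147 and 607 in sensitive versus vehicle tumors.

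Of the recomputed member differences 2805 moved by less than the SD over resistant mice, and 75 by more. None changed sign, which the rule had fixed in advance wherever a mouse was left out. The values are TPM, so depth is unknown, and sensitive tumors had 3 mice.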
